A study of Homo sapiens with 6 samples.

Results

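The transcripts described are those of 42 genes of the ATF4 stress response and of the chaperones of the endoplasmic reticulum (ER), chosen as the probe sets whose platform annotation gives exactly 1 of these symbols. There were 89 such probe sets of 54675 on the array, 43 for 23 genes of an amino acid response arm and 46 for 19 genes of an ER folding arm. They were measured in Hep3B, an established human hepatocellular carcinoma cell line, on 6 Affymetrix HG-U133 Plus 2 arrays. The cells stably expressed a miR-17 TuD (3 arrays) or an NC TuD (3 arrays), where a TuD, a tough decoy, is an RNA that exposes binding sites to a microRNA family. Lentivirus with polybrene was used for both lines (48 hours, multiplicity of infection 5), puromycin selected the carriers, and colonies that resisted were pooled after 2 weeks, so each group rests on 1 pooled line. A second code in the sample descriptions includes PLUSDOX for every miR-17 TuD array and NODOX for every NC TuD array. No source used here explains the code, and its part cannot be told apart from that of the decoy. Separate cultures are not stated for the arrays of a group, so the p-values take only the spread among these samples into account, and that spread may be technical.

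The integrated stress response begins when kinases phosphorylate the translation factor eIF2alpha, which lowers general protein synthesis and favours translation of the transcription factor ATF4. ATF4 then activates genes for amino acid synthesis and uptake, which is why its program is also called the amino acid response. The unfolded protein response is a partly overlapping program in which the ER sensors IRE1 (ERN1), ATF6 and PERK raise the transcription of chaperones and of the degradation machinery when unfolded proteins build up. Hepatocytes secrete large amounts of plasma protein and depend on ER folding capacity. Arrays measure mRNA, so they do not show the translation of ATF4, the cleavage of ATF6 or the splicing of XBP1.

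The decoy is directed at the miR-17 family, microRNAs that share a seed and repress mRNAs paired to it. The mature sequences, from RefSeq on GRCh38.p14, are shown because the shared seed, bases 2 to 8, in capitals, defines the family that the miR-17 TuD is meant to bind.
hsa-miR-17-5p: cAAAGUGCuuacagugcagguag
hsa-miR-20a-5p: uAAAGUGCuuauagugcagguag
hsa-miR-93-5p: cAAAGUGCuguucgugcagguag
hsa-miR-106b-5p: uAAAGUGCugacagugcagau

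All values are log2 levels from the authors' deposited table, and each difference subtracts the NC TuD mean from the miR-17 TuD mean. Pearson's r across kept probe sets was 0.9989 to 0.9993 within groups and 0.9977 to 0.9984 between them. Of the hepatocyte markers fixed for the check, all 8 were measured, between 7.55 and 16.23 on every array, while 3 leukocyte genes lay between 2.12 and 3.88 and 3 endothelial genes between 2.12 and 2.43, with CD3E, CDH5 and VWF at 2.12 on every array, the lowest value of the table. Of 6 fibroblast genes, 3 lay well above it, COL1A1, COL1A2 and LUM, in both lines. For ACTB, the 3′ control probe set minus the 5′ one averaged 0.68 in the miR-17 TuD arrays and 0.70 in the NC TuD arrays (2-sided exact permutation p = 0.1, the smallest that 3 against 3 arrays can give), and that of GAPDH averaged -0.25 in both (p = 0.8).

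At the gene level, where 11.4% of all genes were called, calls went both ways in the amino acid response arm and upward in the ER folding arm. The medians were near 0. In the ER folding arm the miR-17 TuD values lay wholly above the NC TuD values in 4 genes and wholly below in 5. Of all genes, 18.3% and 14.7% did so. In the amino acid response arm 3 of 23 genes rose (ATF5, VLDLR and GDF15) and 3 fell (STC2, CHAC1 and NUPR1), with differences from -0.53 to 0.47 and a median of 0.016. In the ER folding arm 3 of 19 rose (CRELD2, DNAJB9 and CALR) and none fell, with differences from -0.21 to 0.25 and a median of 0.0088. The median over all 13949 genes tested was 0.00056, and with 1 array left out the medians of the amino acid response and ER folding arms ran from -0.023 to 0.032 and from -0.011 to 0.032. ATF4 itself, its partner factor DDIT3, its classical target ASNS, XBP1 and the chaperone HSPA5 differed by 0.073 or less. The chaperone HSP90B1 stood at -0.15, with the miR-17 TuD values wholly below the NC TuD values, and was not called.

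These calls are from limma with Benjamini-Hochberg adjustment over all genes at a threshold of 0.05, and where a gene had several probe sets, the one of highest mean stood for it. In the arms 6 of 23 and 3 of 19 genes passed, where 11.4% of all genes did (6.78% rose and 4.6% fell). The share of calls moves with the level, and 21 of the 42 members lie in the highest class. With a mean level over 12, 4 of 21 members passed, where 17.9% of all genes did, and between 10 and 12, 1 of 11, where 17.9% did. Between 8 and 10, 3 of 7 members passed, where 13.4% of all genes did, and up to 8, 1 of 3, where 2.87% did. The 3 miR-17 TuD values lay wholly above the 3 NC TuD values in 5 genes of the amino acid response arm and 4 of the ER folding arm, and wholly below in 6 and 5. Of all genes, 18.3% lay wholly above and 14.7% wholly below, 33% in all. The median absolute difference was 0.11 in the amino acid response arm, at a median level of 10.62, and 0.078 in the ER folding arm, at a median level of 12.31, where it was 0.079 over all genes, and no test of these was made. At unadjusted p under 0.05 in limma there were 9 of 23 and 8 of 19 genes in the amino acid response and ER folding arms, where 27.8% of all genes were.

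**Figure D1:**
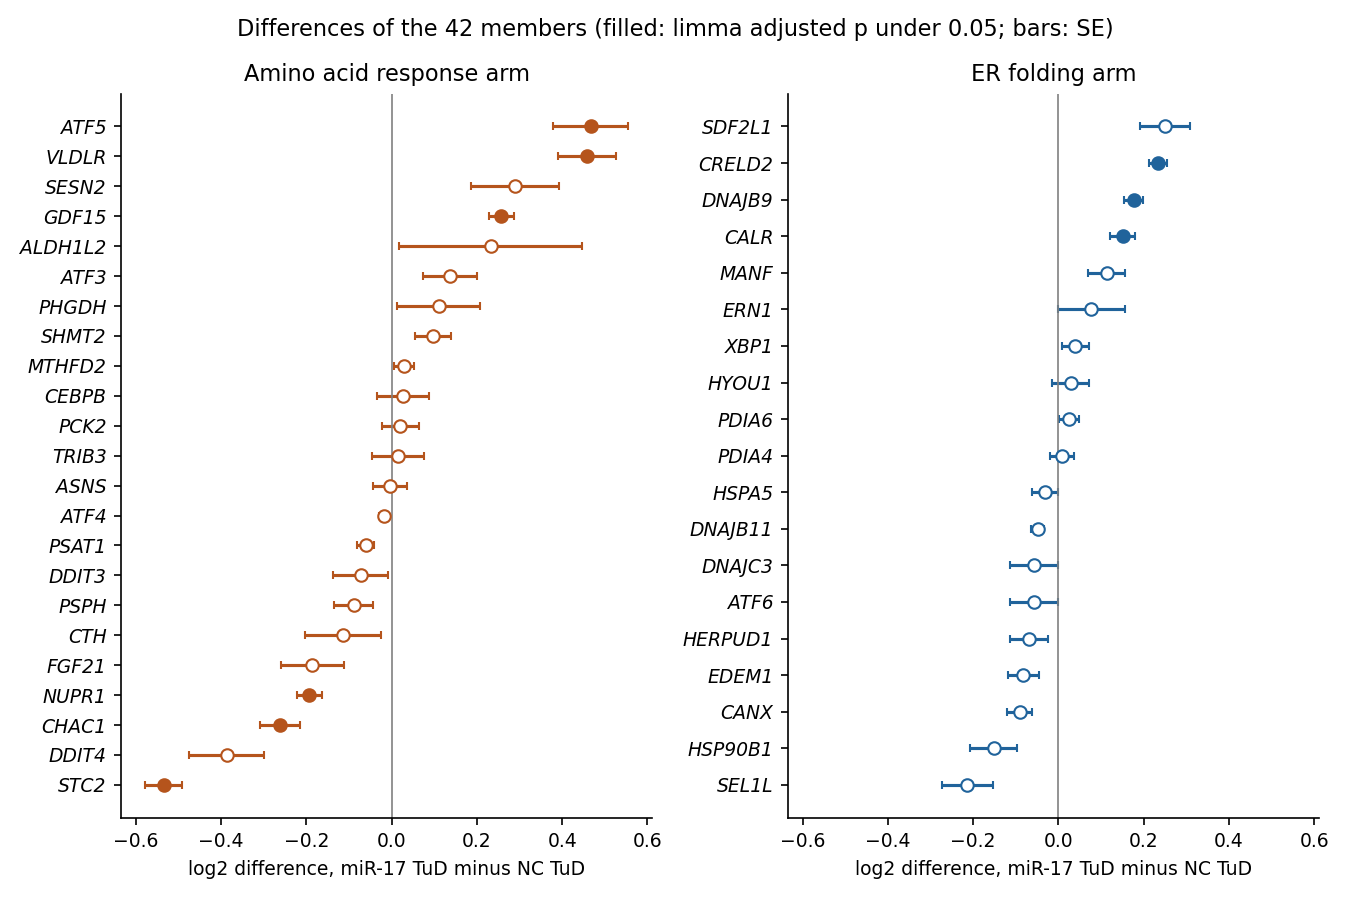
Log2 difference (miR-17 TuD minus NC TuD, horizontal axis) of each of the 42 member genes, sorted within the amino acid response arm (left) and the ER folding arm (right). Bars are the standard error of limma and filled points are genes with an adjusted p under 0.05. Both arms straddle 0, from -0.53 (STC2) to 0.47 (ATF5) on the left and from -0.21 (SEL1L) to 0.25 (SDF2L1) on the right.

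The counts depend on single arrays, as those over all genes do. In the amino acid response arm 2 genes were called when miR-17 TuD replicate 2 was left out, a fit with 812 calls over all genes. There were 1, 1 and 2 when NC TuD replicates 1, 2 and 3 were left out in turn, with 374, 374 and 512 calls over all genes. In the ER folding arm 1 gene was called without any 1 NC TuD array. STC2 and CRELD2 alone among the members passed whichever of the 6 arrays was left out.

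Promoters of both arms carry known response elements, and these are shown for the members whose results are set against them. RefSeq start sites on GRCh38.p14 were matched for 38 of the 42 genes (not SHMT2, PSPH, NUPR1 and ALDH1L2), and a window of 250 bases before to 50 bases after each start was searched on both strands. The ER stress response element, ERSE, was searched as CCAAT and CCACG with any 9 bases between, letters that ATF6 reads together with the CCAAT-binding factor NF-Y. It was found in 7 of 19 ER folding genes and in 0 of 19 amino acid response genes with a window. Of all 27305 genes with a window 0.0916% hold it, and of all 35116 windows 0.0769%. A shorter form, ERSE-II, was searched as ATTGG and CCACG with any 1 base between. It was found in 3 further ER folding genes, HYOU1, HERPUD1 and SDF2L1, and in 0.0696% of all genes with a window. ERSE matches of 5 genes are printed along the gene's strand with the fixed letters in capitals.
HSPA5, chr9:125241386-125241414, minus strand: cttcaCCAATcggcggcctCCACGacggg
XBP1, chr22:28800598-28800626, minus strand: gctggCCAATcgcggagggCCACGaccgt
HSP90B1, chr12:103930211-103930239, plus strand: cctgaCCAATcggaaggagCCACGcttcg
CALR, chr19:12938379-12938407, plus strand: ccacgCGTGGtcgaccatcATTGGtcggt
CRELD2, chr22:49918549-49918577, plus strand: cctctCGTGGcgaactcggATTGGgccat

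In CALR and CRELD2 the element reads in the reverse direction. The 10 ER folding genes with an ERSE or ERSE-II match were 6 above 0 and 4 below 0, with a median difference of 0.027. Of these 10, CALR and CRELD2 were called higher and none lower, where 6.78% of all genes were called higher and 4.6% lower. In the classes of mean level over 10, 17.9% of all genes were called in either direction. A match is a description of the sequence, and no match in this window says nothing about other sites of a gene.

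The element bound by dimers of ATF4 with C/EBP proteins, abbreviated CARE, was searched as TGATG and AA with any 1 base between and was found in 3.62% of all windows, so it is a far less specific string. It was present in 4 of 19 amino acid response genes with a window, where 4.46% of all genes with a window hold it. Among the ER folding genes it was present in HERPUD1.
ASNS, chr7:97872458-97872487, minus strand: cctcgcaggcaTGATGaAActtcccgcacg
ATF3, chr1:212565205-212565234, plus strand: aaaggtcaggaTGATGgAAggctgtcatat
CHAC1, chr15:40953251-40953280, plus strand: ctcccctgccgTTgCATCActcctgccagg
FGF21, chr19:48755459-48755488, plus strand: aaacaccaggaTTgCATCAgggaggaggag

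In CHAC1 and FGF21 the element reads in the reverse direction. The 4 genes stood at -0.0040 (ASNS), 0.14 (ATF3), -0.26 (CHAC1) and -0.19 (FGF21), and of these CHAC1 was called.

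Among the transcription regulators of the amino acid response arm, ATF5 rose and NUPR1 fell, and 5 of 7 did not pass. ATF4, the factor that drives the program, stood at 13.55, 13.56 and 13.58 in the miR-17 TuD arrays, against 13.59, 13.58 and 13.58 in the NC TuD arrays (difference -0.018, SE 0.012, limma adjusted p = 0.388). The groups overlapped. DDIT3, which encodes the stress factor CHOP, stood at 8.76, 8.93 and 8.95 in miR-17 TuD arrays, against 8.88, 8.95 and 9.02 in NC TuD arrays (-0.073, SE 0.064, limma adjusted p = 0.533), again with overlap.

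ATF5, a relative of ATF4 whose translation is also favoured when eIF2alpha is phosphorylated, had the highest difference of the 42 members. It stood at 9.29, 9.25 and 9.17 in the miR-17 TuD arrays, against 8.64, 8.73 and 8.94 in the NC TuD arrays, a 1.38-fold rise (0.47, SE 0.088, limma adjusted p = 0.0404). The groups did not overlap, and NC TuD replicate 3 was the NC TuD array nearest to the others. The call rests on 1 probe set of suffix s_at, which can bind transcripts of more than 1 gene: the other 3 ATF5 probe sets had nearly the same value on all arrays, with differences from -0.0080 to 0.0087, and the mean of the 4 gave 0.12 (adjusted p = 0.0588). It was lost without any miR-17 TuD array or NC TuD replicates 1 or 2 (adjusted p up to 0.141).

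NUPR1, a small chromatin-associated stress protein, stood at 12.56, 12.57 and 12.65 in miR-17 TuD arrays, against 12.80, 12.77 and 12.81 in NC TuD arrays, 1.14-fold lower (-0.19, SE 0.030, limma adjusted p = 0.0267). The groups did not overlap. The call ended in each fit that left out 1 array except that without miR-17 TuD replicate 3, with adjusted p up to 0.101. TRIB3, a pseudokinase that restrains ATF4, differed by 0.016 and CEBPB, a partner of ATF4 on its elements, by 0.027, both with overlapping groups. ATF3, an early stress factor, stood at 10.36, 10.54 and 10.58 in miR-17 TuD arrays, against 10.35, 10.38 and 10.35 in NC TuD arrays (0.14, SE 0.064, limma adjusted p = 0.254). Its miR-17 TuD replicate 1 lay with the NC TuD arrays, and without it the difference was 0.20 with an adjusted p of 0.0237.

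None of the 6 enzymes of serine synthesis and mitochondrial one-carbon metabolism passed. Of the serine synthesis enzymes, PHGDH, the first step, stood at 0.11 (SE 0.097), PSAT1, the transaminase, at -0.061 (SE 0.021) and PSPH, the phosphatase, at -0.088 (SE 0.046). PSAT1 stood at 13.88, 13.87 and 13.94 in miR-17 TuD arrays, against 13.97, 13.95 and 13.95 in NC TuD arrays, without overlap, and was called without miR-17 TuD replicate 3 (adjusted p = 0.0345 in limma). Of the mitochondrial folate enzymes, SHMT2, which moves a carbon unit from serine to folate, differed by 0.098 (SE 0.042, limma adjusted p = 0.217), and its 3 probe sets lay between 0.087 and 0.15. MTHFD2 differed by 0.029 (SE 0.023). ALDH1L2 was near the lowest value of the table at 2.13 on 5 arrays and stood at 2.82 on miR-17 TuD replicate 1, the array through which it passed the filter on low values, so no change can be read from it.

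Among the other metabolic enzymes CHAC1, which degrades glutathione and is one of the most sensitive ATF4 targets, fell. It stood at 8.82, 8.78 and 8.92 in miR-17 TuD arrays, against 9.08, 9.06 and 9.17 in NC TuD arrays, 1.20-fold lower (-0.26, SE 0.047, limma adjusted p = 0.0362). The groups did not overlap, and the call ended in each fit that left out 1 array except that without miR-17 TuD replicate 3 (adjusted p up to 0.109). ASNS, asparagine synthetase, stood at 12.46, 12.54 and 12.59 in miR-17 TuD arrays, against 12.54, 12.50 and 12.56 in NC TuD arrays (-0.0040, SE 0.039, limma adjusted p = 1.0). The groups overlapped fully. CTH, which makes cysteine from cystathionine, differed by -0.11 (SE 0.090), and PCK2, the mitochondrial phosphoenolpyruvate carboxykinase, by 0.021 (SE 0.044). PCK2 was called only without miR-17 TuD replicate 1, at 0.067 (limma adjusted p = 0.0361).

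The inhibitors of the growth kinase complex mTORC1, DDIT4 and SESN2, did not pass the threshold. DDIT4, also known as REDD1, stood at 11.83, 11.999 and 12.15 in miR-17 TuD arrays, against 12.36, 12.35 and 12.42 in NC TuD arrays, 1.31-fold lower (-0.39, SE 0.089, limma adjusted p = 0.0619). The groups did not overlap, and the SD was 0.163 among miR-17 TuD arrays and 0.0374 among NC TuD arrays. Under 5 alternatives it was called, among them quantile normalization (adjusted p = 0.042) and the fit without miR-17 TuD replicate 3 (-0.47, adjusted p = 0.0389). SESN2, a leucine sensor, stood at 9.26, 9.46 and 9.60 in miR-17 TuD arrays, against 9.06, 9.17 and 9.23 in NC TuD arrays (0.29, SE 0.10, limma adjusted p = 0.16). Its second probe set gave 0.34, also without overlap.

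VLDLR, a receptor for triglyceride-rich lipoproteins that ATF4 can induce, rose 1.37-fold. It stood at 8.95, 9.16 and 9.07 in miR-17 TuD arrays, against 8.58, 8.54 and 8.68 in NC TuD arrays (0.46, SE 0.068, limma adjusted p = 0.0245). The groups did not overlap. The call was lost without miR-17 TuD replicates 2 or 3 or any 1 NC TuD array (limma adjusted p between 0.0564 and 0.0963).

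The secreted stress factors did not move together. STC2, the glycoprotein stanniocalcin 2, had the lowest difference of the 42 members. It stood at 7.73, 7.60 and 7.66 in miR-17 TuD arrays, against 8.16, 8.18 and 8.25 in NC TuD arrays, 1.45-fold lower (-0.53, SE 0.043, limma adjusted p = 0.00899). The groups lay well apart, and the second probe set of the gene was also called at the probe set level (-0.24, SE 0.036, adjusted p = 0.0374).

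GDF15, a cytokine of cell stress, rose 1.20-fold, at 14.54, 14.55 and 14.62 in miR-17 TuD arrays, against 14.34, 14.29 and 14.31 in NC TuD arrays (0.26, SE 0.029, limma adjusted p = 0.0137). The groups did not overlap. Its call was lost without any 1 NC TuD array (adjusted p up to 0.0623), and its other 2 probe sets lay at the lowest value on every array. FGF21, a liver hormone, stood at 4.51, 4.35 and 4.59 in miR-17 TuD arrays, against 4.71, 4.60 and 4.69 in NC TuD arrays (-0.19, SE 0.073, limma adjusted p = 0.191). The groups lay close, without overlap.

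**Figure D2:**
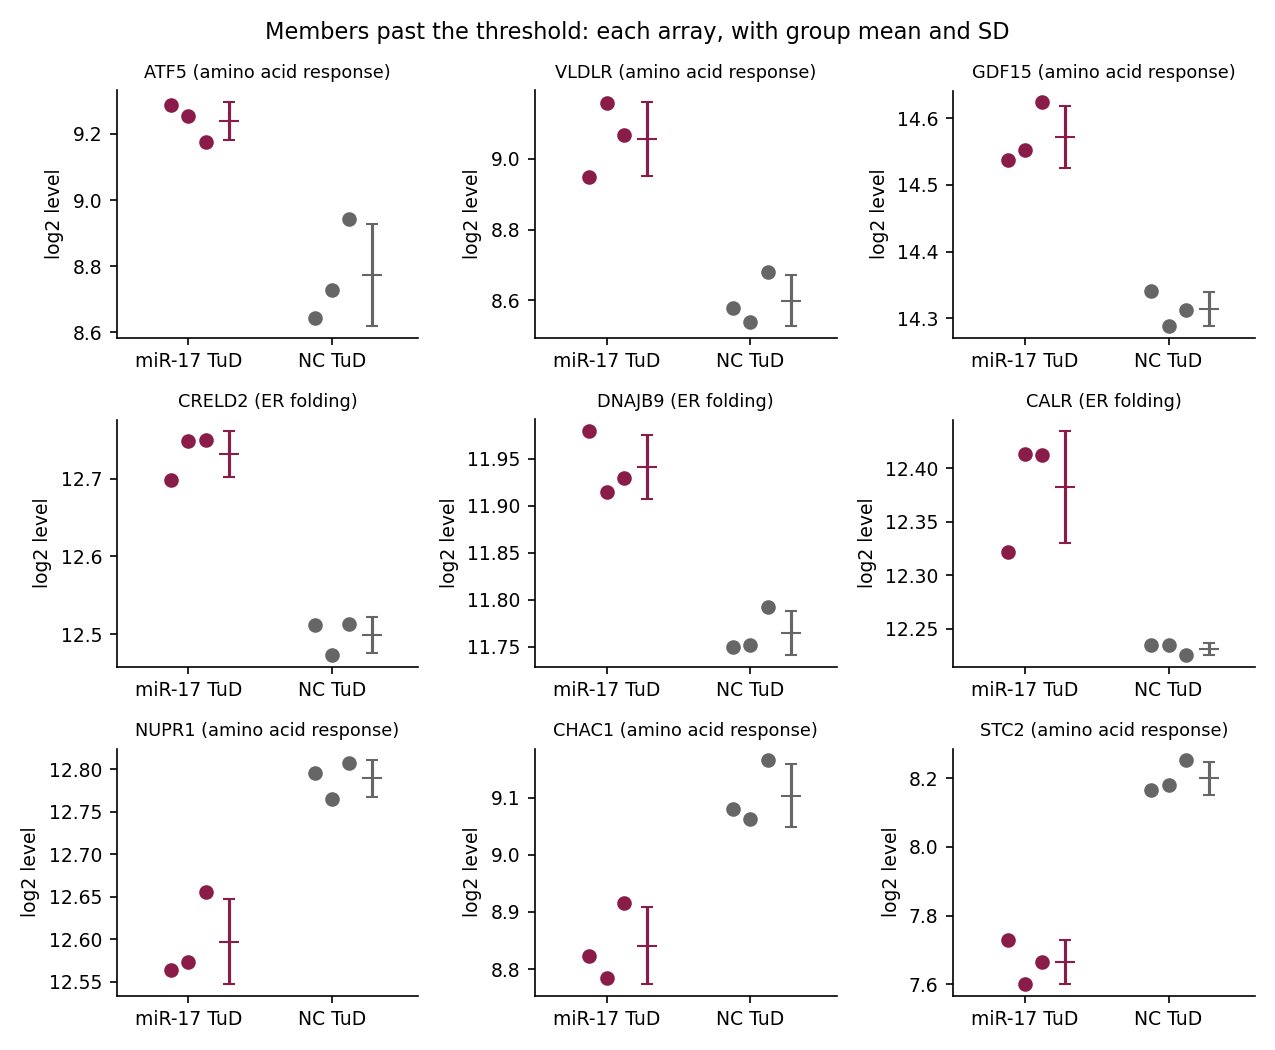
Log2 level on each of the 3 miR-17 TuD arrays (left in each panel) and the 3 NC TuD arrays (right) for the 9 members past the threshold, with the group mean and SD beside the points; each panel has its own axis, which does not start at 0. The groups do not overlap in any of the 9 panels, and the mean differences run from 0.47 (ATF5) to -0.53 (STC2).

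In the ER folding arm the sensors differed little. XBP1, the transcription factor that IRE1 activates by splicing, stood at 12.27, 12.36 and 12.35 in miR-17 TuD arrays, against 12.25, 12.30 and 12.31 in NC TuD arrays (0.040, SE 0.031, limma adjusted p = 0.475). The groups overlapped, as they did for ERN1, which encodes IRE1 (0.078, SE 0.078), and for ATF6 (-0.057, SE 0.056). The 4 ATF6 probe sets lay between -0.13 and -0.038.

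HSPA5, the central ER chaperone BiP, stood at 15.03, 15.12 and 15.12 in miR-17 TuD arrays, against 15.10, 15.13 and 15.12 in NC TuD arrays (-0.030, SE 0.030, limma adjusted p = 0.549), and its second probe set gave 0.014. The groups overlapped. HSP90B1, the ER member of the HSP90 family, stood at 12.96, 12.97 and 12.80 in miR-17 TuD arrays, against 13.04, 13.10 and 13.05 in NC TuD arrays (-0.15, SE 0.055, limma adjusted p = 0.164). Its second probe set gave -0.29 (SE 0.052, adjusted p = 0.0534 at the probe set level), and both sets, of suffix x_at, kept the groups apart. With the probe sets averaged HSP90B1 was called lower at -0.22 (adjusted p = 0.0496 in limma). HYOU1, an exchange factor for HSPA5, differed by 0.029 (SE 0.043).

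The lectin chaperones, which hold glycoproteins during folding, lay on opposite sides of 0. CALR stood at 12.32, 12.41 and 12.41 in miR-17 TuD arrays, against 12.23, 12.23 and 12.22 in NC TuD arrays, a 1.11-fold rise (0.15, SE 0.029, limma adjusted p = 0.0416). Its probe sets disagree: 2 of suffix x_at gave 0.15 and 0.10 without overlap, and the set without that suffix gave 0.00083 with overlap. The CALR call was lost without miR-17 TuD replicates 2 or 3 or any 1 NC TuD array (adjusted p up to 0.137). CANX stood at 13.30, 13.35 and 13.33 in miR-17 TuD arrays, against 13.39, 13.48 and 13.40 in NC TuD arrays (-0.091, SE 0.030, limma adjusted p = 0.14), and 3 of its 4 kept probe sets kept the groups apart, all below.

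DNAJB9, a J-domain co-chaperone that steers misfolded proteins toward degradation, rose, and the other co-chaperones did not pass. It stood at 11.98, 11.91 and 11.93 in miR-17 TuD arrays, against 11.75, 11.75 and 11.79 in NC TuD arrays, 1.13-fold higher (0.18, SE 0.023, limma adjusted p = 0.0182). All 3 of its probe sets kept the groups apart, at 0.18, 0.17 and 0.25. The call was lost without any 1 NC TuD array (adjusted p up to 0.0791). DNAJB11, which delivers clients to HSPA5, differed by -0.048 (SE 0.015) without overlap, and DNAJC3, an inhibitor of eIF2alpha kinases as well as a co-chaperone, by -0.057 (SE 0.057). The disulfide isomerases PDIA4 (0.0088, SE 0.027) and PDIA6 (0.025, SE 0.024) had overlapping groups on all 6 kept probe sets.

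The 3 small luminal proteins of ER stress among the members were all above 0. CRELD2 stood at 12.70, 12.75 and 12.75 in miR-17 TuD arrays, against 12.51, 12.47 and 12.51 in NC TuD arrays, 1.18-fold higher (0.23, SE 0.021, limma adjusted p = 0.0094), without overlap. SDF2L1, a partner of ER co-chaperones, stood at 11.57, 11.50 and 11.67 in miR-17 TuD arrays, against 11.37, 11.26 and 11.37 in NC TuD arrays (0.25, SE 0.058, limma adjusted p = 0.0639), also without overlap. MANF, a secreted ER stress protein, differed by 0.11 (SE 0.043, limma adjusted p = 0.18), with overlapping groups.

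The 3 members for ER-associated degradation were all below 0, with none past the threshold at the gene level. Genes outside the members went both ways. DERL2 was called higher (0.29, limma adjusted p = 0.0108), while EDEM3, named after its value was seen, stood at -0.40 and was not called. SEL1L, the scaffold of the main ubiquitin ligase of this pathway, stood at 11.54, 11.66 and 11.52 in miR-17 TuD arrays, against 11.74, 11.89 and 11.74 in NC TuD arrays (-0.21, SE 0.060, limma adjusted p = 0.0974). Of its 4 probe sets 3 kept the groups apart, and 1 of them was called at the probe set level (-0.28, SE 0.040, limma adjusted p = 0.0344). EDEM1, which trims mannose from misfolded glycoproteins, differed by -0.082 (SE 0.036) without overlap, and HERPUD1, a membrane protein that assembles the ligase, by -0.069 (SE 0.045) with overlap.

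Over single probe sets, 82 of the 89 passed the filter, and 8 of these were called in limma, 5 in the amino acid response arm (2 higher, 3 lower) and 3 in the ER folding arm (2 higher, 1 lower). Of all 32768 kept probe sets 5.83% were called, 3.35% higher and 2.48% lower. Of the 23 genes with more than 1 kept probe set, 8 had at least 2 sets that kept the groups apart in the same direction. None had sets apart in opposite directions. These 8 were SHMT2, SESN2, CALR and DNAJB9 above and STC2, HSP90B1, CANX and SEL1L below. The share of all genes that meet this rule was not computed, so the count of 8 has no background. Taken singly, 27.3% of all kept probe sets kept the groups apart (13.7% above, 13.6% below), which is not a share of genes.

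**Figure D3:**
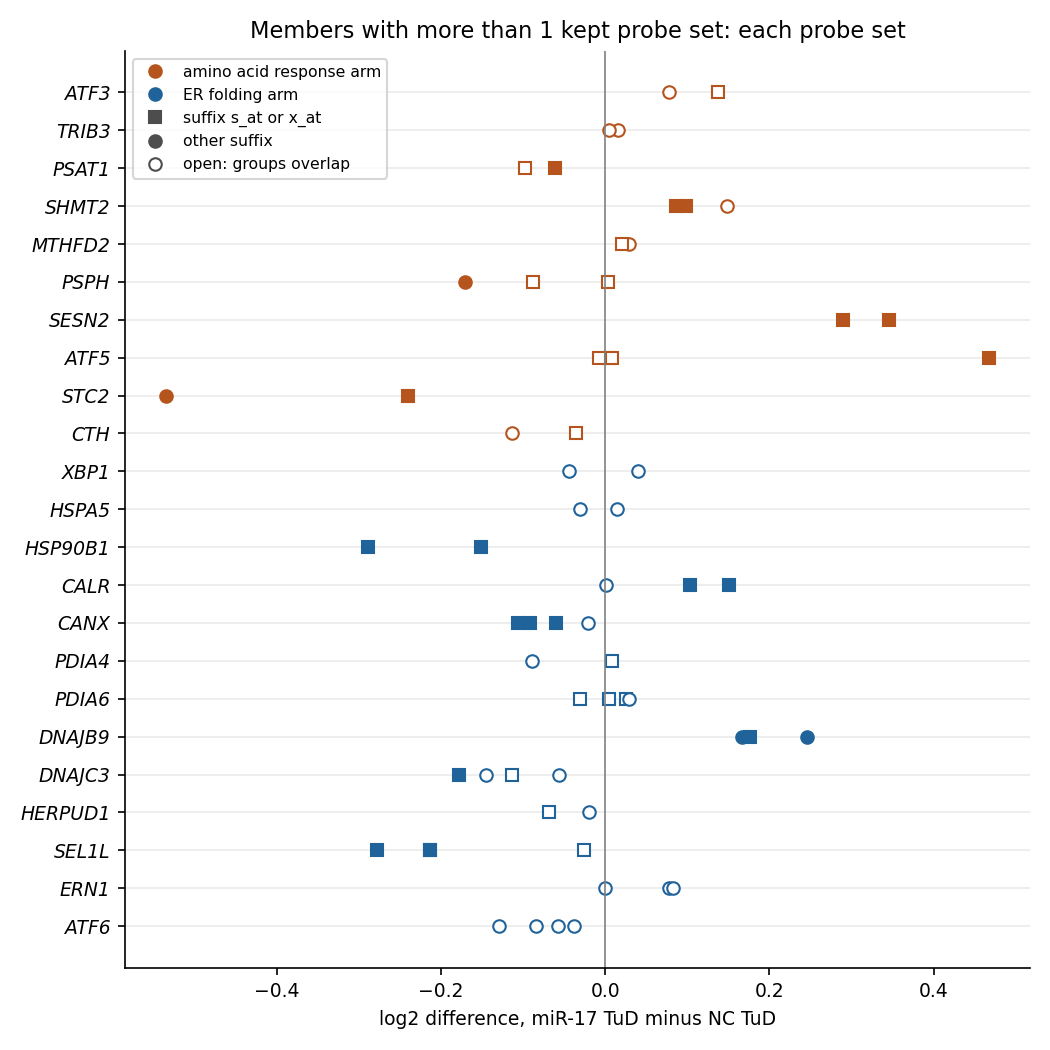
Log2 difference (miR-17 TuD minus NC TuD, horizontal axis) of each kept probe set for the 23 members with more than 1, by gene. Squares are sets of suffix s_at or x_at, circles other sets, and open symbols mark sets whose 3 miR-17 TuD and 3 NC TuD values overlap. The 3 DNAJB9 sets lie together at 0.17 to 0.25, while the ATF5 sets run from -0.0080 to 0.47 and the CALR sets from 0.00083 to 0.15.

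Within a group, many genes of the amino acid response arm were highest or lowest on the same array. Of the 23 genes, 19 (82.6%) were highest in miR-17 TuD replicate 3 among the miR-17 TuD arrays, where 41.9% of all genes were, and 15 (65.2%) were lowest in replicate 1, where 32% of all genes were. Among the NC TuD arrays, 15 (65.2%) were lowest in replicate 2, where 31.5% of all genes were. The median deviation of the arm from its group means was -0.071, 0.0075 and 0.058 in miR-17 TuD replicates 1, 2 and 3, against 0.0046, -0.027 and 0.026 in NC TuD replicates 1, 2 and 3. In the ER folding arm the largest share was 11 of 19 genes (57.9%) highest in NC TuD replicate 2, where 28.1% of all genes were. Ties were not counted, so genes with tied values lower the shares over all genes. Levels differed too, with a median of 10.62 in the amino acid response arm and 9.27 over all genes. Genes of an arm share their arrays and are not independent, and no test was made of these counts.

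**Figure D4:**
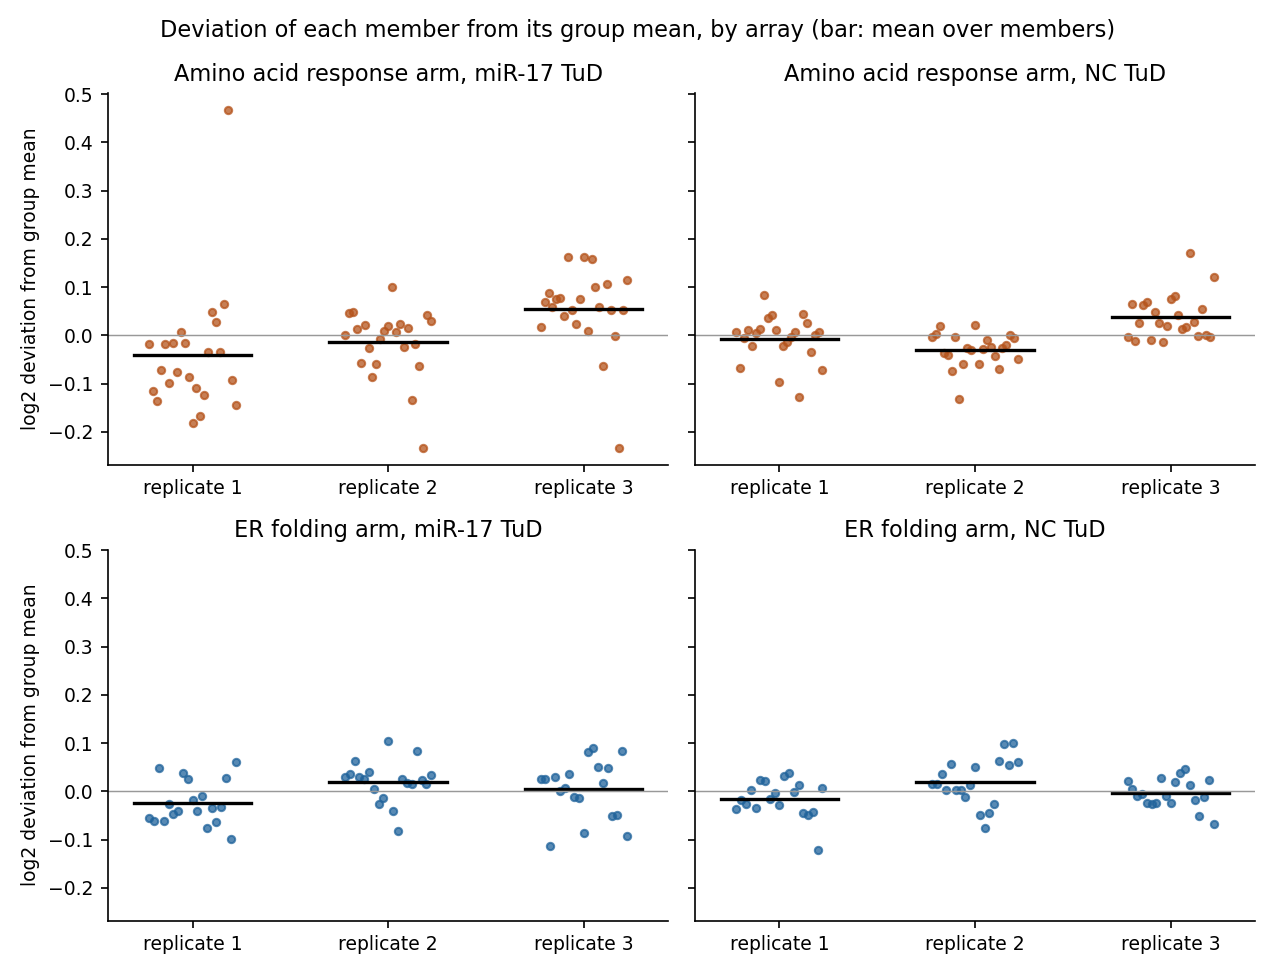
Log2 deviation of each member gene from its own group mean on each array, for the amino acid response arm (upper row) and the ER folding arm (lower row), with miR-17 TuD arrays left and NC TuD arrays right. Bars are means over the genes of an arm. Most points of the amino acid response arm lie above 0 on miR-17 TuD replicate 3 and below 0 on miR-17 TuD replicate 1, where the single high point is ALDH1L2.

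Genes around the members were taken from lists of the same pathways. Of all genes tested 11.4% were called (6.78% higher, 4.6% lower), and 17.9% in each class of mean level over 10. Without miR-17 TuD replicates 1, 2 and 3 in turn, 1105, 812 and 1243 of all genes were called. Without NC TuD replicates 1, 2 and 3 in turn there were 374, 374 and 512. Of 14 genes for eIF2alpha kinases, phosphatases and partners, 5 rose and none fell (35.7%), with a median of 0.076. EIF2B3 rose 1.30-fold (0.38, SE 0.050, limma adjusted p = 0.0189), EIF2B2 1.16-fold (0.21) and EIF2B5 1.14-fold (0.19, SE 0.017, limma adjusted p = 0.00946). All 3 encode subunits of eIF2B, the exchange factor that phosphorylated eIF2alpha inhibits. PPP1R15A, an ATF4 target that returns eIF2alpha to its unphosphorylated form, rose 1.09-fold (0.13, SE 0.020, limma adjusted p = 0.0252), and the fifth was EIF2B1 (0.083), named after its value was seen. The kinases of ER stress and amino acid starvation, EIF2AK3 (-0.13, SE 0.044, limma adjusted p = 0.134) and EIF2AK4 (-0.22, SE 0.049, adjusted p = 0.059), also named after their values were seen, did not pass. The count was 3 without any 1 miR-17 TuD array, of which 1 was lower without replicate 2, and 1 without any 1 NC TuD array. EIF2B5 passed in each of these fits, EIF2B3 without miR-17 TuD replicates 1 or 2, EIF2B2 without miR-17 TuD replicate 1 and PPP1R15A in none.

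A list of 16 genes, many of them ATF4 targets, had a median of 0.034. It holds cytosolic aminoacyl-tRNA synthetase genes and XPOT, which encodes a tRNA exporter. Of these 2 rose and none fell, 12.5% against 11.4% of all genes. These were HARS1 (1.30-fold, 0.37, SE 0.039, limma adjusted p = 0.0122) and VARS1 (1.29-fold, 0.37, SE 0.034, adjusted p = 0.0101), and the HARS1 call ended without NC TuD replicate 3 and the VARS1 call without NC TuD replicate 1, which left 1 gene in each fit.

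Of 20 other genes linked to ATF4, 3 rose and 1 fell (20%, against 11.4% of all genes), with a median of 0.043. SQSTM1, an autophagy receptor, rose 1.30-fold, TNFRSF10B, a death receptor that CHOP can induce, 1.30-fold (0.38, SE 0.040, limma adjusted p = 0.0122), and CDKN1A, the cell cycle inhibitor, 1.53-fold. NFIL3, a transcription repressor, fell by 0.33 on the log2 scale (limma adjusted p = 0.0127). SQSTM1 differed by 0.11 on a probe set without suffix s_at or x_at (adjusted p = 0.382) and lost its call in each fit without 1 array. The count was 1, 1 and 2 without NC TuD replicates 1, 2 and 3. The TNFRSF10B call ended without NC TuD replicates 1 or 2 and the NFIL3 call without any 1 NC TuD array.

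Of 42 further ER folding and quality control genes, 3 rose and 4 fell (16.7%, against 11.4% of all genes), with a median of 0.021. FICD, which adds or removes an AMP group on HSPA5, rose 1.72-fold, at 7.52, 7.82 and 7.82 in miR-17 TuD arrays, against 6.84, 6.99 and 6.99 in NC TuD arrays (0.78, SE 0.10, limma adjusted p = 0.019). DERL2, a retrotranslocation protein, rose 1.23-fold, WFS1, an ER membrane protein of calcium balance, rose 1.22-fold, and CREB3L2, an ER-anchored transcription factor, fell by 0.27 on the log2 scale. The CREB3L2 difference was -0.030 on a probe set without suffix s_at or x_at (limma adjusted p = 0.494). The count was 4 without miR-17 TuD replicate 2 and 0, 0 and 2 without NC TuD replicates 1, 2 and 3. The FICD call was among those lost without miR-17 TuD replicate 2, and the FICD, DERL2, WFS1 and CREB3L2 calls ended without any 1 NC TuD array. The WFS1 call ended also without miR-17 TuD replicates 1 or 2.

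Of 18 hepatocyte secreted proteins, clients of the ER folding machinery, 15 fell and none rose, with a median of -0.47. The share called was 83.3%, against 11.4% of all genes. Without NC TuD replicates 1, 2 and 3, 8, 6 and 7 were called, in fits with 374, 374 and 512 calls over all genes. Of 8 p53 target genes, 1 rose, CDKN1A, and none fell (12.5%, against 11.4% of all genes), with a median of -0.16. Without miR-17 TuD replicate 2, 2 of them were called, in a fit with 812 calls over all genes. Of 7 leukocyte, endothelial and fibroblast genes that passed the filter, LYZ rose (0.59, limma adjusted p = 0.0193), 14.3% against 11.4% of all genes. The LYZ call ended when an NC TuD array or miR-17 TuD replicate 2 was left out (limma adjusted p up to 0.0826). Without miR-17 TuD replicate 1, 3 of the 7 were called, in a fit with 1105 calls over all genes. LYZ differed by 0.071 on a probe set without suffix s_at or x_at. The part of these lists in the members' values was not tested.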

How the data were processed

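Total RNA of 6 Hep3B samples was measured on Affymetrix arrays. RMA and GCRMA are named in the submitters' processing notes, which give neither version nor role. The table the authors deposited holds 1 log2 value for each probe set on each array, used here as deposited. The lowest value, 2.12, is held by 34.9% to 35.4% of an array's probe sets, the highest is 16.3, and array medians were 2.75 to 2.78. Such a floor hides changes of weakly expressed genes, and the number of arrays limits the precision. No source used here gives a genome build or detection calls.

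Control probe sets (62) were left out, as were probe sets with a mean at or under the 40th percentile (2.14). Platform symbols were updated through Entrez identifiers. Probe sets with several symbols, 3 of which include a member, were not named. The comparison used lmFit and eBayes of limma 3.58.1 (R 4.3.3, 2-sided), at the gene level (highest probe set per gene, 13949 genes) and over 32768 kept probe sets, with Benjamini-Hochberg adjustment over all features. The prior degrees of freedom were 0.72. The pipeline was tested on simulated data.

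The members and lists were chosen with earlier results of these data known. All 42 members are accounted for, with array values for those past the threshold and for ATF4, DDIT3, ASNS, XBP1, HSPA5 and HSP90B1. From each other list, except that of hepatocyte secreted proteins, up to 4 called genes with the largest change are named. The values of members outside the rule for the 42 members were chosen for printing after they were seen. Replicate numbers are shared between groups, but nothing in the labels says that they pair arrays, so the main fit used no block. The correlations of same-numbered deviations from the group means were 0.0405, 0.104 and 0.114.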

Additional observations from a re-analysis of the deposited data

How the results depend on the processing

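The alternatives included quantile normalization, centring each array on the median of its kept probe sets, and no filter or the 60th percentile filter. Averaged probe sets, no s_at and x_at probe sets, and single probe sets were also used. In the fit, the alternatives were trend, robust variance, array weights, the replicate block and leaving out each array. All alternatives for the pathway lists were chosen after seeing the data. The count of called genes in the amino acid response arm was 2 with no filter, 2 of 15 with s_at and x_at probe sets left out, 2 under the replicate block and 1 to 6 with 1 array left out. In the ER folding arm it was 1 of 15 with s_at and x_at probe sets left out, 1 under the replicate block and 1 to 3 with 1 array left out. Over all genes it was 789 with no filter, 927 with s_at and x_at probe sets left out, 822 under the replicate block and 374 to 1243 with 1 array left out. The median of the amino acid response arm ran from -0.023 to 0.032 with 1 array left out. That of the ER folding arm was 0.031 with centring, -0.019 without s_at and x_at probe sets, -0.030 over single probe sets and -0.011 to 0.032 with 1 array left out. Under the replicate block STC2 and CHAC1 were the amino acid response genes called, and SEL1L (-0.21, adjusted p = 0.0375) was the ER folding gene called. For each miR-17 TuD array, deviations from the group mean correlated best with those of the NC TuD array of the same number. These correlations were low (0.0405, 0.104 and 0.114), and whether same-numbered arrays are paired was not tested.

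No called member changed sign. Members that were not called changed sign as follows: with centring ATF4 (0.0039) and ASNS (0.018); with quantile normalization PDIA4 (-0.0072); with averaged probe sets XBP1 (-0.0023) and PDIA4 (-0.040); without s_at and x_at probe sets PDIA4 (-0.088). With 1 array left out ASNS ran from -0.033 to 0.032, TRIB3 from -0.023 to 0.065, CEBPB from -0.023 to 0.089, PCK2 from -0.0056 to 0.067, HSPA5 from -0.048 to 0.00040 and PDIA4 from -0.011 to 0.032. The cause was not tested. Signals near the lowest value, as for ALDH1L2, limit what can be read.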
